A study of Mus musculus with 6 samples.

Results

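Transcription factors that set the identity of the intestinal epithelium were followed along the mouse colon. The 9 factors were the caudal homeobox proteins Cdx1 and Cdx2, the zinc finger proteins Gata4, Gata5 and Gata6, the homeobox protein Isx, the membrane-bound factor Creb3l3, the forkhead protein Foxa2 and the Krüppel-like factor Klf5. They were chosen by name, and all 9 were measured, among 18193 genes in all. Each gene was read from its brightest probe set by the mean of the 6 arrays, and 16 probe sets were annotated to only 1 of the factors. The samples were total RNA from colon tissue of untreated female C57BL/6J mice, an inbred strain, with 3 libraries labelled proximal colon and 3 labelled distal colon. The design text gives 3 animals as the source of both regions, but the labels do not say which numbers share an animal, and they give no age. Values are log2 expression, so a difference of 1 is a 2-fold change, and all differences are distal minus proximal.

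The gut tube is divided along its length by transcription factors that stay on in the adult epithelium. CDX proteins hold the intestinal fate and switch on genes of the brush border and of the mucus layer, while GATA factors divide the absorptive epithelium into regions and are known for their part in the difference between jejunum and ileum. ISX lowers the uptake and cleavage of carotenoids when retinoic acid is plentiful, and CREB3L3 is cut at the membrane of the secretory pathway and then switches on genes of lipid transport. FOXA proteins open chromatin in endoderm and its secretory cells, and KLF5 marks dividing cells of the crypt.

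The libraries labelled proximal 1 and distal 3 stood apart from their groups. Over 18193 genes, r between proximal 1 and its own group was 0.975 to 0.977 and r with distal 1 and 2 was 0.990 to 0.994, and distal 3 correlated at 0.974 to 0.976 with the others labelled distal and at 0.995 to 0.996 with proximal 2 and 3. Hoxb13, which marks the tail end of the body, was at 6.53 and 6.48 in the other proximal libraries but at 13.39 in proximal 1, and at 13.78 and 13.29 in the other distal libraries but at 6.65 in distal 3. Libraries are therefore named by their labels, and each result is given for the 6 libraries as labelled and for the 4 libraries without these. That choice was made because of the profiles of the libraries, so p-values from the 4 libraries overstate the evidence and describe only those 4.

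In the 4 libraries, 5 of the factors differed between the regions. Isx, Creb3l3, Gata5 and Cdx2 were lower in distal libraries, Foxa2 was higher, and Cdx1, Gata4, Gata6 and Klf5 did not pass the test. In all, 5 of 9 factors passed an adjusted p of 0.05 in limma, 4 of them lower in distal libraries, where 19.2% of all genes passed and 11.5% did so with the lower level in distal libraries and 7.71% with the higher. As labelled, 0 of 9 factors and 0 of 18193 genes (0%) passed in limma, and at an unadjusted p of 0.05 there were 0 of the 9 factors and 554 of all genes. With array weights, which are estimated from the same values, limma called 7 of the 9 factors and 5579 of 18193 genes as labelled. Distal 2, one of the 4 libraries, had a low weight of 0.4031, near 0.3222 for proximal 1 and 0.291 for distal 3. The weights were 6.7187 for proximal 2, 1.5721 for proximal 3 and 2.5046 for distal 1. The weighted fit thus rests mostly on proximal 2, proximal 3 and distal 1, and its p-values may overstate the evidence too. In the 6 libraries as labelled, all distal values lay on one side of all proximal values for 1 of the 9 factors, Gata6. They did so for 7.33% of all genes.

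**Figure D1:**
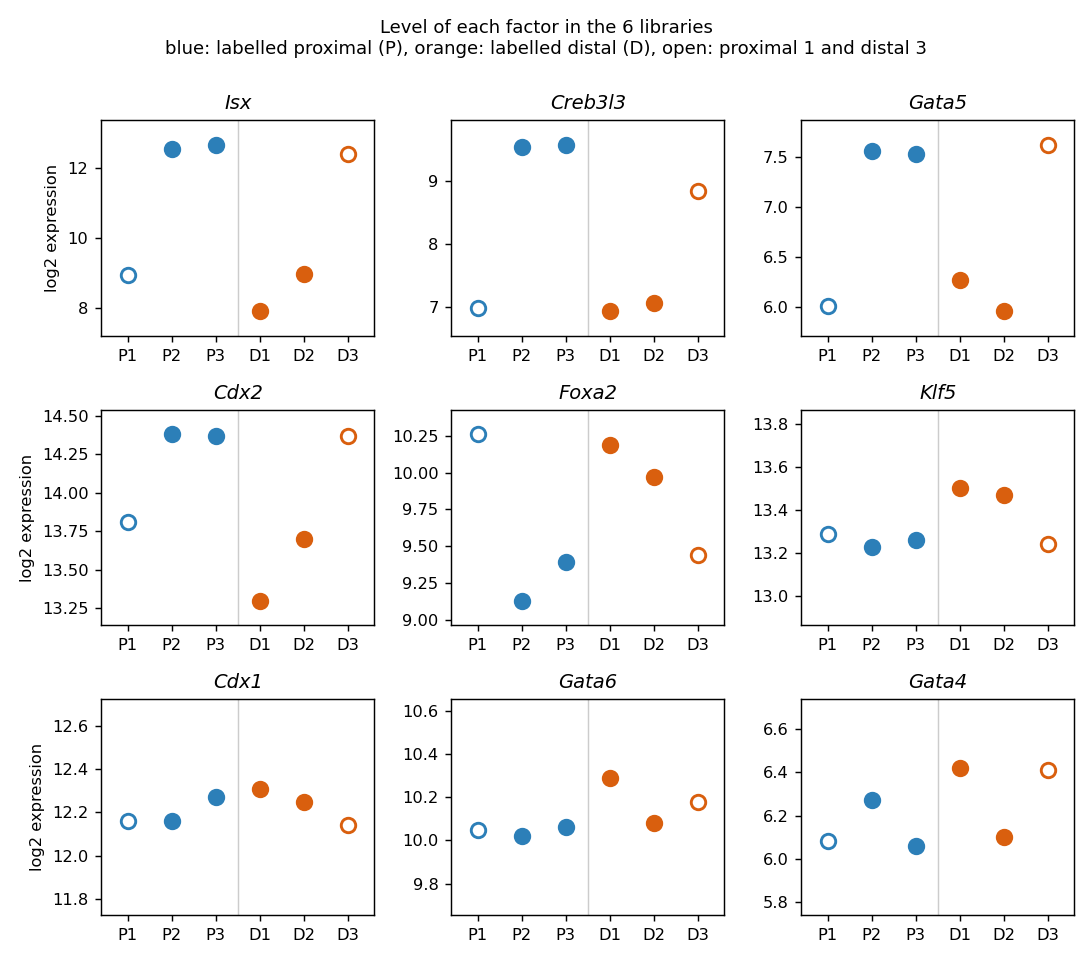
Log2 expression of each of the 9 factors in the 6 libraries, 1 point per library, with libraries labelled proximal in blue and distal in orange, and each panel on its own scale. The open points of proximal 1 and distal 3 lie with the other label for Isx, Creb3l3, Gata5, Cdx2 and Foxa2, as for Isx with 8.92 in proximal 1 and 12.39 in distal 3.

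The plot of levels by library shows the same split of the libraries for the factors that passed. For each of these 5 factors proximal 1 was closer to the distal pair, and distal 3 was closer to the proximal pair. Across the 3494 genes that passed in the 4 libraries, these shares were 75.6% and 90.2%.

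For the 4 factors that were lower in distal libraries of the 4, the 250 bases before a RefSeq start are shown. They are read 5′ to 3′ on the strand of the gene, in build GRCm38.p6. Whether these factors share control was not tested. Capitals mark the only match to the motifs searched. The windows are chr8:74872924-74873173 on the plus strand, and chr10:81092592-81092841, chr2:180334680-180334929 and chr5:147307250-147307499 on the minus strand. The windows shown for Creb3l3 and Gata5 lie within the span of the gene. Another Creb3l3 window, chr10:81098873-81099122 at the 5′ end of the gene, held no match and is not shown.
Isx: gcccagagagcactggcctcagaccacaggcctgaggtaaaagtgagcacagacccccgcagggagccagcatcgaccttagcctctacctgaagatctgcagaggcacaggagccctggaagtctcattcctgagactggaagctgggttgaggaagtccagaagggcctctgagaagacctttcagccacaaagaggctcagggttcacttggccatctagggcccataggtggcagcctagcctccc
Creb3l3: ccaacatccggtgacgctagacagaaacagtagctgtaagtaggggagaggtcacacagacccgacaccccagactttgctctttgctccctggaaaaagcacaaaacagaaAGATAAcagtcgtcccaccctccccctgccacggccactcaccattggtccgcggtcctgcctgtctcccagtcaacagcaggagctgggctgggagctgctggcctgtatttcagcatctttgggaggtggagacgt
Gata5: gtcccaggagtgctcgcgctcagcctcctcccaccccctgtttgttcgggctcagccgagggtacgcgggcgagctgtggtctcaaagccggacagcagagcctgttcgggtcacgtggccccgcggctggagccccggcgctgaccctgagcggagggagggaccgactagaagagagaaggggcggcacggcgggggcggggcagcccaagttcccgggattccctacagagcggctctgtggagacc
Cdx2: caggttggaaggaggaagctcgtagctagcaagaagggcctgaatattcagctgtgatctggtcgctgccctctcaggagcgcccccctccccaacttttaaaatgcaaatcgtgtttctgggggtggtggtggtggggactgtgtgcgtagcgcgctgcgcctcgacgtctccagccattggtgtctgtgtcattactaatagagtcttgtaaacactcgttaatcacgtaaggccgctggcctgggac

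The windows differ in base composition, with 70.0% G and C for Gata5, 58.8% for Isx, 56.8% for Creb3l3 and 55.2% for Cdx2. The letters TTTATG, a core of CDX binding sites, and AGATAA and TGATAA, cores of GATA binding sites, were searched on both strands. Of the 9 factors 5 were matched in the RefSeq promoter table by symbol, Foxa2 being the other one, and gave 8 windows, since Creb3l3 and Foxa2 have several starts. TTTATG was in 0 of the 8, and in 10.8% of 32851 windows of this length over all genes. AGATAA was in 2 of the 8, with its first base at position -138 from the Creb3l3 start shown and at -183 from 1 Foxa2 start. Both of these starts lie within the span of their gene, and the window at the 5′ end of each of these genes held no match. AGATAA was in 9.99% of all windows, and either GATA core was in 16.6%. A match describes letters in these windows and is not evidence of binding.

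Isx had the largest difference among the 9 factors in the 4 libraries. It measured 12.54 in proximal 2 and 12.66 in proximal 3, against 7.90 in distal 1 and 8.97 in distal 2, with 8.92 in proximal 1 and 12.39 in distal 3. The proximal pair lay close together, while the distal pair was spread over more than 1 log2 unit with distal 1 the lowest of all 6 libraries. The level in distal libraries was lower by 17.9-fold in the 4 libraries (log2 difference -4.17, SE 0.34, limma adjusted p = 0.00246), which ranked 27 of 18193 genes from the lowest difference. The call did not hold in limma without proximal 2 (adjusted p = 0.0787) or proximal 3 (adjusted p = 0.0849), where the difference was -4.22 and -4.11. As labelled Isx averaged 11.37 ± 2.13 in proximal and 9.75 ± 2.35 in distal libraries (both SD, n = 3), a difference of -1.62 (SE 1.45, limma adjusted p = 0.824).

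Genes that ISX is known to repress were measured beside it. Bco1, the enzyme that cleaves beta-carotene, measured 7.41 in proximal 2 and 7.45 in proximal 3, against 8.47 in distal 1 and 8.20 in distal 2, with 7.72 in proximal 1 and 7.50 in distal 3. It was higher in distal libraries of the 4 (0.91, SE 0.13, limma adjusted p = 0.0115), opposite to Isx. In proximal 1 Bco1 lay nearer the proximal pair although Isx there was at the distal level. Scarb1, a scavenger receptor that takes up lipids and carotenoids, did not pass and measured between 10.36 and 10.95 in all 6 libraries (difference -0.08 in the 4, SE 0.21, limma adjusted p = 0.837), and it was named after its values were seen.

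Of the CDX pair, Cdx2 was lower in distal libraries and Cdx1 did not pass. Cdx2 measured 14.38 in proximal 2 and 14.37 in proximal 3, against 13.30 in distal 1 and 13.70 in distal 2, 13.81 in proximal 1 and 14.37 in distal 3. The 3 high libraries were within 0.01 of each other and close to 15.16, the highest value in the whole table, and the 3 others lay lower and were spread. The level was lower by 1.83-fold in distal libraries of the 4 (-0.88, SE 0.16, limma adjusted p = 0.0212). In limma the call was lost without proximal 2 (-0.87, adjusted p = 0.216), without proximal 3 (-0.88, adjusted p = 0.236) and without distal 2 (-1.08, adjusted p = 0.0521). As labelled the difference was -0.40 (SE 0.30, limma adjusted p = 0.824), with averages of 14.19 ± 0.33 in proximal and 13.79 ± 0.54 in distal libraries (both SD, n = 3).

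The dimmer Cdx2 probe set (1422074_at) gave a larger difference than the one used (1422075_at). It measured 11.59 in proximal 2 and 11.76 in proximal 3, against 9.29 in distal 1 and 9.68 in distal 2, 10.17 in proximal 1 and 11.57 in distal 3. Its difference in the 4 libraries was -2.19 (SE 0.17, limma adjusted p = 0.00187), and the mean of both probe sets gave -1.53 (SE 0.15, limma adjusted p = 0.00317). The order of libraries was the same on both probe sets except among the 3 high ones, with distal 1 lowest, then distal 2 and proximal 1.

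Cdx1, the relative of Cdx2 best known from the crypt, measured 12.16, 12.16 and 12.27 in proximal 1, 2 and 3 and 12.31, 12.25 and 12.14 in distal 1, 2 and 3, a range of 0.17 in which the groups overlap. The difference was 0.07 in the 4 libraries (SE 0.11, limma adjusted p = 0.725) and 0.04 as labelled (SE 0.10, limma adjusted p = 0.926).

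Among the GATA factors, Gata5 passed and Gata4 and Gata6 did not. Gata5 measured 7.56 in proximal 2 and 7.53 in proximal 3, against 6.27 in distal 1 and 5.96 in distal 2, 6.01 in proximal 1 and 7.62 in distal 3. The 3 low values lie below 6.54, the lower quartile of the gene values, where signal from background may mask a lower level, so the 2.69-fold difference (-1.43, SE 0.14, limma adjusted p = 0.00377 in the 4 libraries) is at best a lower bound. The other Gata5 probe set had the same direction (-1.22, SE 0.11, limma adjusted p = 0.00302). It measured 5.08 to 6.62, and only proximal 2 and proximal 3, at 6.57 and 6.62, lay above that quartile. Its difference is thus also at best a lower bound. The call of the probe set used was lost in limma without proximal 2 (-1.42, adjusted p = 0.101) and without proximal 3 (-1.45, adjusted p = 0.106). As labelled Gata5 averaged 7.03 ± 0.89 in proximal and 6.62 ± 0.88 in distal libraries (both SD, n = 3) (difference -0.42, SE 0.58, limma adjusted p = 0.856).

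Gata4, which marks duodenum and jejunum, stayed below the lower quartile of the gene values in every library. It measured 6.08, 6.27 and 6.06 in proximal 1, 2 and 3 and 6.42, 6.10 and 6.41 in distal 1, 2 and 3. The difference was 0.10 in the 4 libraries (SE 0.16, limma adjusted p = 0.717) and 0.17 as labelled (SE 0.13, limma adjusted p = 0.824), and values this low have no order.

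Gata6, the GATA factor of dividing intestinal cells and also of smooth muscle, measured 10.05, 10.02 and 10.06 in proximal 1, 2 and 3 and 10.29, 10.08 and 10.18 in distal 1, 2 and 3. The labelled groups did not overlap, but by a margin of no more than 0.02. The difference was 0.14 as labelled (SE 0.10, limma adjusted p = 0.824) and 0.15 in the 4 libraries (SE 0.12, limma adjusted p = 0.46). A dimmer Gata6 probe set (1443081_at) was higher in distal libraries of the 4 (0.74, SE 0.14, limma adjusted p = 0.0183), with 8.56 in proximal 2 and 8.29 in proximal 3, against 9.18 in distal 1 and 9.14 in distal 2, whereas 1425463_at gave 0.06 (SE 0.13, limma adjusted p = 0.787). The probe sets of Gata6 thus disagree in whether they pass.

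Creb3l3 was lower in distal libraries and was the factor with the smallest adjusted p. It measured 9.53 in proximal 2 and 9.57 in proximal 3, against 6.94 in distal 1 and 7.06 in distal 2, 6.99 in proximal 1 and 8.84 in distal 3. Both pairs were tight, and distal 3 lay between them, 0.71 below the mean of the proximal pair. The level in distal libraries of the 4 was lower by 5.86-fold (-2.55, SE 0.11, limma adjusted p = 0.000389). It was the only one of the 9 factors to pass in limma without each of the 4 libraries in turn, with adjusted p from 0.038 to 0.0487. As labelled it averaged 8.70 ± 1.48 in proximal and 7.61 ± 1.06 in distal libraries (both SD, n = 3) (difference -1.08, SE 0.84, limma adjusted p = 0.824).

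Foxa2 ran the other way. It measured 9.13 in proximal 2 and 9.39 in proximal 3, against 10.19 in distal 1 and 9.97 in distal 2, 10.26 in proximal 1 and 9.44 in distal 3. The distal level was higher by 1.77-fold in the 4 libraries (0.82, SE 0.15, limma adjusted p = 0.0199). Leaving out any 1 of the 4 libraries ended the call in limma, with differences from 0.69 to 0.95 and adjusted p of 0.216 when proximal 2 was left out, 0.163 for proximal 3, 0.0918 for distal 1 and 0.084 for distal 2. As labelled Foxa2 averaged 9.59 ± 0.59 in proximal and 9.87 ± 0.39 in distal libraries (both SD, n = 3) (difference 0.27, SE 0.34, limma adjusted p = 0.847). Markers of the pancreas, an organ that uses FOXA2, were high in proximal 1 and distal 1, which also have the highest Foxa2 values: the mean level of 24 acinar markers was 11.53 and 11.37 there and 7.38 to 7.76 in the other 4 libraries. Distal 2, with acinar markers at 7.60, had Foxa2 at 9.97, above 9.13 in proximal 2 and 9.39 in proximal 3. Without distal 1 the Foxa2 difference was 0.71. The part of pancreatic tissue in the difference was not tested.

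Klf5 measured 13.29, 13.23 and 13.26 in proximal 1, 2 and 3 and 13.50, 13.47 and 13.24 in distal 1, 2 and 3. The difference was 0.24 in the 4 libraries (SE 0.10, limma adjusted p = 0.168) and 0.14 as labelled (SE 0.11, limma adjusted p = 0.824), so Klf5 did not pass. Its middle probe set (1451739_at) did, at 0.88 (SE 0.17, limma adjusted p = 0.0216), with 10.87 in proximal 2 and 10.63 in proximal 3, against 11.82 in distal 1 and 11.44 in distal 2, 11.25 in proximal 1 and 10.93 in distal 3. The mean of the 3 Klf5 probe sets passed as well (0.51, SE 0.13, limma adjusted p = 0.0416).

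**Figure D2:**
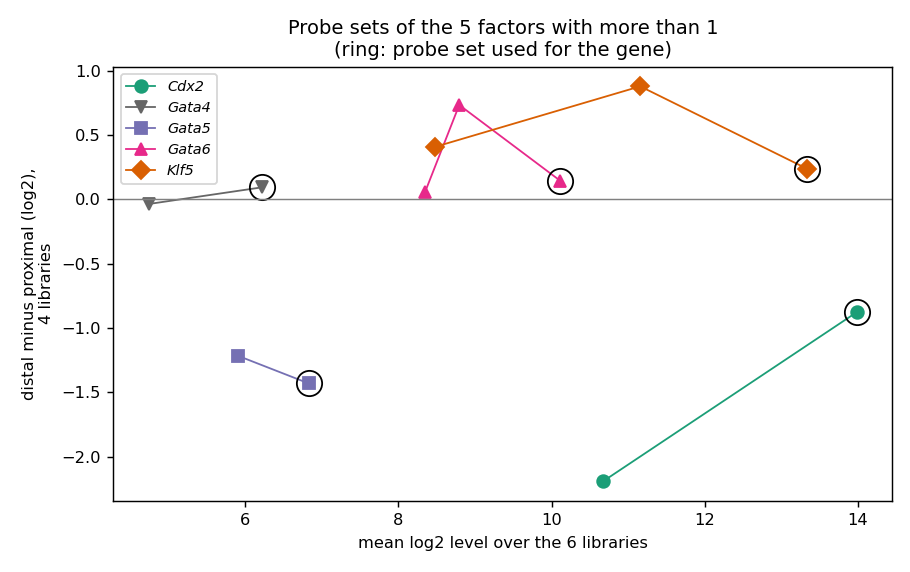
Distal minus proximal difference (log2, 4 libraries) against the mean log2 level over the 6 libraries for each probe set of the 5 factors with more than 1, with a ring around the probe set used. The brightest probe sets of Cdx2 and Klf5 have smaller differences (-0.88 and 0.24) than their probe sets near level 11 (-2.19 and 0.88), and Gata4 lies at 0.10 and -0.035.

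**Figure D3:**
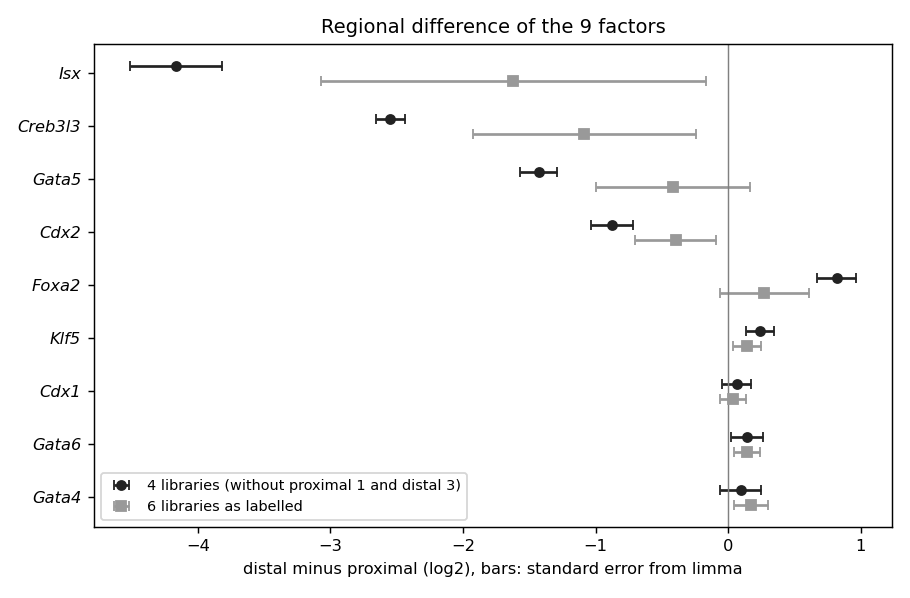
Distal minus proximal difference (log2) of each factor with its limma standard error, in the 4 libraries (black circles) and in the 6 libraries as labelled (grey squares). The 5 factors at the top differ in the 4 libraries, from -4.17 for Isx to 0.82 for Foxa2, and their differences as labelled are closer to 0 with longer bars.

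The plot of differences shows that the sign of each factor was the same in the 4 libraries and as labelled. The 4 libraries are part of the 6, so the shared sign is no separate evidence. Distal 3 set against proximal 1 had the opposite sign for each factor that passed, as for Isx with 12.39 against 8.92. For the 5 factors that passed, the labelled difference was smaller in size and its standard error larger, as for Isx with 1.45 against 0.34.

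Of 16 close relatives of the factors, all measured, 2 were higher in distal libraries of the 4 and 0 were lower in limma, a share of 12.5% against the 19.2% of all genes. Creb3l1, a membrane-bound relative of Creb3l3 found in goblet cells, measured 11.25 in proximal 2 and 11.25 in proximal 3, against 12.16 in distal 1 and 12.32 in distal 2, opposite in direction to Creb3l3 (0.99, SE 0.11, limma adjusted p = 0.00584). Klf7 was higher as well (0.79, SE 0.16, limma adjusted p = 0.0274). Foxa1 and Foxa3, the other FOXA proteins, had differences of 0.13 and -0.03 and did not pass (limma adjusted p = 0.508 and 0.90), and Klf4, which marks differentiated cells in contrast to Klf5, had 0.06 (limma adjusted p = 0.753). Cdx4, which acts in the embryo, measured 3.24 to 3.47 in the 6 libraries, near the floor of 2.91 of the table.

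Of 34 other regulators of the epithelium that were measured, 6 were lower and 3 higher in distal libraries of the 4, and 25 did not pass, a share called of 26.5% against the 19.2% of all genes. Prdm1, a repressor that times the maturation of the gut lining around weaning, measured 9.91 in proximal 2 and 10.02 in proximal 3, against 8.0 in distal 1 and 8.03 in distal 2 (-1.95, SE 0.11, limma adjusted p = 0.000778). The fatty acid receptors Pparg and Ppara were lower in distal libraries (differences -1.92, SE 0.12, and -1.47, SE 0.19), as were the zinc finger factor Ovol1 (-1.17, SE 0.11) and the hedgehog ligand Ihh (-0.86, SE 0.11), while the forkhead factor Foxp1 was higher (0.92, SE 0.12), with limma adjusted p from 0.00104 to 0.00913. Hnf4a, the nuclear receptor of the absorptive epithelium, did not pass and measured 14.21 to 14.33 in all 6 libraries (limma adjusted p = 0.94). As labelled, none of the relatives or other regulators passed in limma. Leaving out any 1 of the 4 libraries lowered the number of genes called from 3494 to between 146 and 1633, and the counts of relatives, regulators and targets were not recomputed that way.

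Genes tied to each factor as targets were counted from lists written from general knowledge, with earlier results of these data known. The CDX list also holds the factors Isx and Cdx1. Of 25 measured CDX targets 7 were lower and 2 higher in distal libraries of the 4, a share called of 36.0% against 19.2% of all genes. The median difference of the list was -0.07 against -0.045 over all genes. Those lower included Isx itself, Guca2b, a peptide hormone of surface cells (-1.23, SE 0.12, limma adjusted p = 0.00357), the brush border protease Mep1a (-0.92) and the iron oxidase Heph (-0.78). Those higher were the peptide transporter Slc15a1 (2.09, SE 0.19) and the folate transporter Slc46a1 (1.81, SE 0.25). Of the other 16, which did not pass, villin (Vil1), the cadherin Cdh17 and the mucin Muc2, chosen after their values were seen, had differences of -0.27, -0.39 and 0.10 (limma adjusted p = 0.132, 0.0796 and 0.735).

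Of 27 measured GATA targets 14 were lower and 1 was higher in distal libraries of the 4, with a median of -0.94. The share called was 55.6% against 19.2% of all genes. The list holds genes of fat, cholesterol and bile acid uptake, among them the cholesterol transporter Npc1l1 (-4.19, SE 0.11), the bile acid importer Slc10a2 (-3.86, SE 0.14), the bile acid exporter subunit Slc51a (-6.93, SE 0.29), the bile acid binding protein Fabp6 (-3.06, SE 0.15) and the apolipoprotein Apoa1 (-5.67, SE 0.31). The distal mean of Npc1l1, Slc10a2 and Slc51a was below 6.54, so their differences are at best lower bounds. The only higher one was Adh1, an alcohol and retinol dehydrogenase (2.27, SE 0.11), and for these 6 genes limma gave adjusted p from 0.000109 to 0.00077. GATA4 is known to repress Slc10a2 and Fabp6 in the jejunum, and Gata4 itself was at the low levels given above in all 6 libraries. Of the list 8 genes are also markers of small intestinal epithelium and 4 are also in the CREB3L3 list, so the counts overlap.

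Of 25 measured CREB3L3 targets 11 were lower and 3 higher in distal libraries of the 4, with a median of -0.42. The share called was 56.0% against 19.2% of all genes. Beside Npc1l1 and Apoa1, Saa3, an acute phase protein (-5.09, SE 0.31), and the apolipoprotein Apoc3 (-1.57, SE 0.17) were lower. The iron hormone Hamp (1.38, SE 0.11), the fatty acid desaturase Fads2 (0.86, SE 0.10) and Ppargc1a, a coactivator of mitochondrial genes (0.86, SE 0.11), were higher, and Ppargc1a was named after its values were seen. The largest limma adjusted p among the 7 was 0.00734. Hamp was highest in the library labelled proximal 1, at 8.51, and measured 6.77 and 6.85 in distal 1 and 2 and 5.0 to 5.47 in the other 3 libraries, below the lower quartile of the gene values, so its difference is at best a lower bound.

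The FOXA and KLF5 target lists stood near the share of all genes. Of 21 FOXA targets 2 were higher and 2 lower in distal libraries of the 4. Those higher were Isl1, a factor of endocrine cells (2.14, SE 0.19, limma adjusted p = 0.00308), and Pyy, a hormone of the L cells of the colon (1.11, SE 0.13, limma adjusted p = 0.00641), and those lower were Ihh and the mucin glycosyltransferase Galnt3 (-0.50, SE 0.11, limma adjusted p = 0.0372). Of 24 KLF5 targets 4 were lower and 1 was higher. The lower ones were the secreted growth factor carrier Fgfbp1 (-1.18, SE 0.17), the immediate early factor Egr1 (-0.92, SE 0.14), the kinase Pim1 (-0.75, SE 0.14) and the cell cycle kinase Cdk1 (-0.61, SE 0.12), the higher one was the growth factor Pdgfa (0.49, SE 0.11), and their limma adjusted p lay between 0.0116 and 0.0351. As labelled, none of the targets of any list passed in limma.

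**Figure D4:**
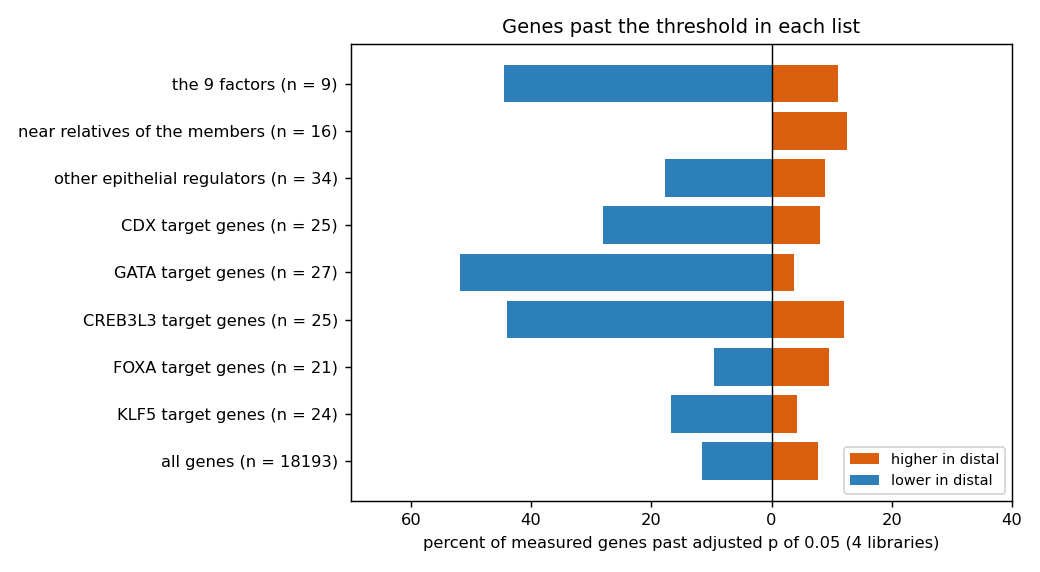
Percent of measured genes in each list past a limma adjusted p of 0.05 in the 4 libraries, with those higher in distal libraries to the right and those lower to the left, and the same over all genes at the bottom. GATA and CREB3L3 targets have 14 of 27 and 11 of 25 genes lower in distal libraries, against 11.5% of all genes, and the FOXA list has 2 of 21 on each side.

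The plot of list shares sets each list beside all genes, and describes the lists without a test of their difference from other genes. Since the libraries are whole tissue, fewer cells of a type and less RNA of a gene in each cell cannot be told apart. The mean level of 30 epithelial markers was 12.95 in proximal 2 and 13.01 in proximal 3, against 12.79 in distal 1 and 12.77 in distal 2, 12.70 in proximal 1 and 12.95 in distal 3. Between the pairs the mean over these markers differed by -0.20 and their median by -0.075, against -0.045 for the median of all genes. Of the 30, 4 were lower in distal libraries, 1 was higher and 25 did not pass. The share called was 16.7%, against 19.2% of all genes. The tight junction protein Cldn4 had the largest difference (-3.28, SE 0.10, limma adjusted p = 0.000195), and the mean over the other 29 differed by -0.097. When each array was centred on the mean of all 30 markers, the median over all genes went from -0.045 to 0.16 and the calls with the higher level in distal libraries went from 1402 of 3494 to 2838 of 4077. Relative to them, Isx was lower by 3.96, Creb3l3 by 2.35, Gata5 by 1.23 and Cdx2 by 0.67, and Foxa2 was higher by 1.02. All of these had a limma adjusted p of at most 0.0394. Klf5 passed on this scale (0.44, SE 0.11, limma adjusted p = 0.0385), but not when Cldn4 was left out of the markers (0.34, adjusted p = 0.0879) or when arrays were centred on the median of the markers (0.40, adjusted p = 0.0589). Centring on that median also ended the call of Cdx2 in limma (-0.71, adjusted p = 0.0524). Isx, Creb3l3, Gata5 and Foxa2 passed under all 3 of these centrings. Each centring shifts the differences of all genes by the same amount, so the part of epithelial content in them was not tested.

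**Figure D5:**
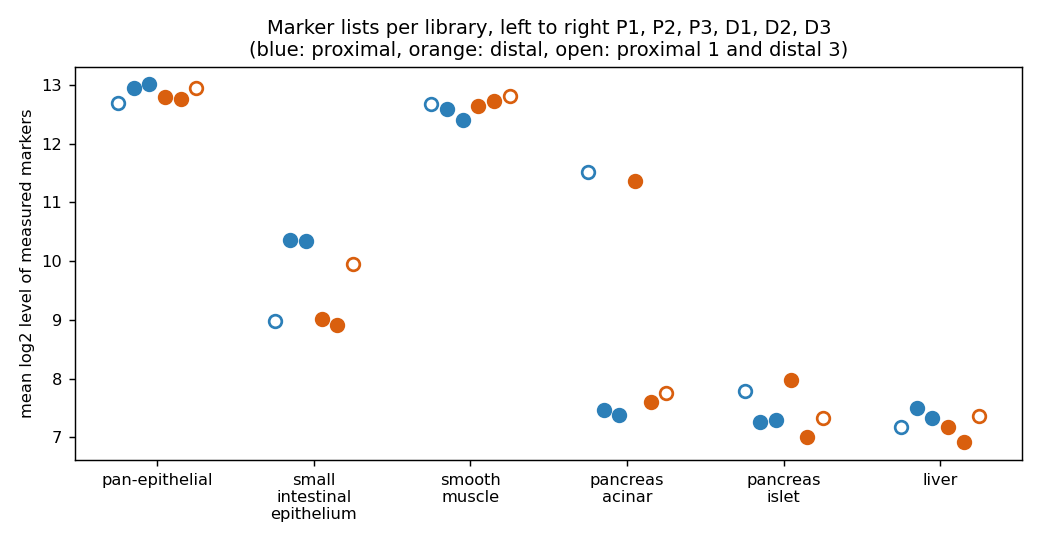
Mean log2 level of the measured markers of 6 cell type or tissue lists, 1 point per library, in the order proximal 1 to 3 and distal 1 to 3. Small intestinal markers are at 9.96 to 10.37 in proximal 2, proximal 3 and distal 3 and at 8.91 to 9.02 in the other 3 libraries, and acinar markers are at 11.53 and 11.37 in proximal 1 and distal 1.

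Markers of small intestinal epithelium were lower in the distal pair, as were Isx, Creb3l3, Gata5 and Cdx2. Of 23 measured, 15 were lower and 1 was higher in distal libraries of the 4, against 11.5% of all genes lower and 7.71% higher, with a mean level of 10.37 in proximal 2 and 10.34 in proximal 3, against 9.02 in distal 1 and 8.91 in distal 2. Whether cells like those of the ileum were present in these libraries was not tested. Lct, the lactase of the jejunum, stayed between 6.18 and 6.48 in all 6 libraries, below the lower quartile of the gene values, as did Gata4. Smooth muscle markers were at 12.41 to 12.82 and liver markers at 6.92 to 7.49 in the 6 libraries. Markers of adipocytes averaged 11.35 in proximal 2 and 10.63 in proximal 3, against 10.47 in distal 1 and 10.07 in distal 2, and 3 of 12 measured were lower in distal libraries of the 4 and 0 higher. One of the 3 is Cidec, a lipid droplet protein that is also in the CREB3L3 list (-2.68, SE 0.34, limma adjusted p = 0.00803). Of 21 measured leukocyte markers 6 were lower and 3 higher, a share of 42.9% against 19.2% of all genes. The lower ones are the T cell genes Cd3e, Cd3g and Cd8a, and also Fcer1g, Cd68 and Adgre1. The higher ones are the B cell genes Ms4a1, Cd79a and Cd79b. The part of fat and of leukocytes in the differences of the factors was not tested.

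Other genes had nearly the same profile as a factor over the 6 libraries. Likeness was the root mean square difference (log2) between the deviations of a factor and of a gene from their own means, taken over the 5 factors with a range of at least 1. For Isx, whose own deviations had a root mean square of 2.00, the nearest genes were Asb4, a subunit of a ubiquitin ligase (0.10), the retinol dehydrogenase Rdh1 (0.20) and Mogat2, an enzyme of fat absorption (0.24). For Creb3l3, at 1.18, they were Depdc7 (0.11), the phospholipase Pla2g3 (0.16) and Ccl25, a chemokine that draws lymphocytes to the small intestine (0.16).

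For Gata5, at 0.75, the nearest genes were Adtrp (0.08), the methyltransferase Mettl7b (0.10) and Clca4a, a protein of surface colonocytes (0.12). For Cdx2, at 0.41, they were Adamtsl2 (0.04), the prostaglandin receptor Ptgfr (0.04) and Pdhx, a subunit of pyruvate dehydrogenase (0.06). For Foxa2, at 0.43, they were Lsr, a lipoprotein receptor of epithelial junctions (0.06), Txndc16 (0.06) and Cd83, a surface protein of dendritic cells (0.07). All of these profiles share the same 6 libraries, so likeness describes the libraries and not a tie between genes.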

How the data were processed

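Gene expression was measured with 6 single-colour arrays, 1 per library. The authors deposited log2 expression values per probe set, made with RMA in Partek 6.5 per the submitters' processing notes; the log2 scale is taken from that note and from the range of 2.91 to 15.16. RMA makes the distributions of arrays alike, so a change common to most genes would be hidden. No scanner files or detection calls were used here, and precision is limited by how few arrays there are.

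Of 45101 probe sets, 64 controls were left out, and 34945 had 1 gene symbol, 932 several and 9160 none listed. For 34741 the gene identifier gave the current symbol in a RefSeq table of GRCm38.p6. The regions were compared by lmFit and eBayes of limma 3.58.1 (R 4.3.3), with two-sided p-values adjusted by Benjamini-Hochberg over the 18193 genes, a threshold of 0.05 and no block. The fit was also run on simulated data drawn with the within-label spread of the 4 libraries. Those data hold no libraries that stand apart, so they cannot speak to the fit as labelled. P-values reflect only the spread among these libraries.

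The factors, gene lists, tests and the fit of 4 libraries were chosen with earlier results of these data known. Genes named by rule are the 9 factors, and up to 6 genes per list that passed in the 4 libraries by smallest adjusted p. The rule also gives the 3 genes nearest in profile to each factor with a range of at least 1. Other genes named, such as Foxa1, Foxa3, Klf4, Cdx4, Hnf4a, Lct, Cldn4 and Cidec, fall outside this rule and were not fixed in advance. Marker lists of 12 cell types or tissues were averaged per library. Alternatives were a filter on low means (below 9.31), the mean of probe sets, each other probe set, quantile normalization, median centring, centring on epithelial markers (their mean, and, added after seeing the data, their median or their mean without Cldn4), a trended and robust variance prior, array weights, a threshold of 0.01, the replicate number as a block and leaving out each library.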

Additional observations from a re-analysis of the deposited data

How the results depend on the processing

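As labelled, 0 genes and 0 of the 9 factors passed in limma under every alternative except array weights, which gave 5579 genes and 7 factors, and leaving out each library in turn gave 0. The replicate number as a block gave 0 genes (smallest adjusted p = 0.404) and 0 factors. Deviations of same-numbered libraries from their group means correlated at 0.677, -0.448 and 0.678 for numbers 1, 2 and 3. These deviations include those of proximal 1 and distal 3, not every correlation was above 0.1, and whether equal numbers share an animal is not known. No paired analysis was possible for the 4 libraries because their labels share only number 2. In the 4 libraries 3494 genes and 5 factors passed. At a threshold of 0.01 these were 1112 and 3, and with low means left out 3242 of 9099 genes and 3 of the 6 factors that remained passed. The trended and robust variance prior gave 4577 genes and 6 factors, and the mean of probe sets gave 3879 and 6. Klf5 was the factor added by each (limma adjusted p = 0.0362 and 0.0416). Leaving out 1 library gave 146 to 1633 genes and 1 to 4 factors, with 1 residual degree of freedom and the lone library assumed to vary like the others. The share of calls higher in distal libraries, 1402 of 3494, was 1737 of 3455 after quantile normalization and 1883 of 3440 after median centring. Added after seeing the data, centring on the median of the epithelial markers gave 3281 genes, 2056 of them higher in distal libraries, and 4 factors, and centring on their mean without Cldn4 gave 3379 genes, 1831 of them higher, and 5 factors. Signs changed for Cdx1 as labelled (-0.0017 to 0.0833 with 1 library left out) and for Gata4 in the 4 libraries (-0.065 to 0.255 with 1 left out, and -0.035 on its other probe set). These are factors without a call. Depth in the sense of signal limits Gata4 and Gata5, which lie near background in some or all libraries.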

Other observations

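Beyond the genes named by rule, more targets and regulators passed in the 4 libraries, and these were chosen after their values were seen. Alpi, the intestinal alkaline phosphatase of the brush border and a CDX target, measured 12.11 in proximal 2 and 12.04 in proximal 3, against 6.55 in distal 1 and 9.03 in distal 2, 8.69 in proximal 1 and 11.99 in distal 3, a difference in the 4 libraries of -4.29 (SE 0.77, limma adjusted p = 0.0202). As with Isx, distal 1 was the lowest library and the distal pair was widely spread. Grhl3, an epithelial barrier factor, was higher in distal libraries (1.01, SE 0.24, limma adjusted p = 0.0413), at levels of 5.20 to 6.69, and with a proximal mean below the lower quartile of the gene values (6.54) its difference is at best a lower bound. Esrrg, an orphan nuclear receptor, was higher by 0.60 (SE 0.11), and the chromatin organiser Satb1 was lower by 0.68 (SE 0.12).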
